A study of Cervus nippon with 4 samples.

Results

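The abundant transcripts of the longissimus dorsi, a long back muscle, were compared between adult (Msc_3, 5-year-old) and aged (Msc_4, 10-year-old) sika deer. A gene model entered the comparison when its FPKM (fragments scaled to gene model length and to the fragments of the library) was 15 or more in Msc_3 or in Msc_4. This was reached by 4845 of the 326981 gene models listed in the series, which is 1.48% of them. They held 80.6% of the FPKM total of Msc_3 and 79.6% of that of Msc_4. Of the 4845 gene models, 3670 had at least 15 FPKM in both libraries, 669 in Msc_3 only and 506 in Msc_4 only. The last 2 sets entered through their higher library and therefore lean towards a difference.

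The series held 4 mRNA libraries of Shuangyang Sika deer at 1 (Msc_1), 3 (Msc_2), 5 and 10 years, and no agent or genetic change was part of the design. For each age, 1 library was made from the pooled muscle RNA of 3 deer that had been without feed before slaughter. There were no replicates. The spread between deer of one age was not measured, a pool hides a single outlying animal, and age cannot be told apart from the library. No test was run for this reason, and each value below compares 2 pools. The FPKM totals were 825006 in Msc_3 and 787171 in Msc_4, and 761348 and 763360 in Msc_1 and Msc_2. FPKM is scaled to the fragments of each library, so these totals do not measure the amount of RNA in a muscle. Neither the number of fibres nor the RNA per fibre was measured, and they cannot be told apart in whole muscle.

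A skeletal muscle fibre fills most of its volume with contractile filaments and with the membranes and mitochondria that supply calcium and ATP. Its mRNA is accordingly dominated by a short list of transcripts for contractile proteins and for energy metabolism, so that a modest change in one of these outweighs large changes in many rarer transcripts. With age, mammalian muscle loses mass and may alter its mix of fast and slow fibres. The gene models of these libraries carry assembly identifiers, a component number followed by a gene number, and no gene names were paired with them. It was therefore not known which of the gene models below encode contractile, metabolic or other proteins, and the muscle label could not be checked against marker genes.

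The highest gene models were largely the same at both ages and differed by less than 2-fold. Of the 10 highest of each library, 9 were shared, and of the 100 highest 87 were shared. A set of 46 gene models had a mean of 2000 FPKM or more over the 2 libraries, and together they held 38.3% of the FPKM total of Msc_3 and 36.7% of that of Msc_4. The same 46 held 37.0% in Msc_1 and 39.6% in Msc_2. Their log2 differences, Msc_4 minus Msc_3, ran from -0.64 to 0.82, with a median of -0.14. Of the 46, 35 were lower and 11 were higher in Msc_4. This split depended on scaling, with 36 lower after trimmed-mean (M-values) scaling, 29 as shares of each library total and 24 after upper-quartile scaling.

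**Figure D1:**
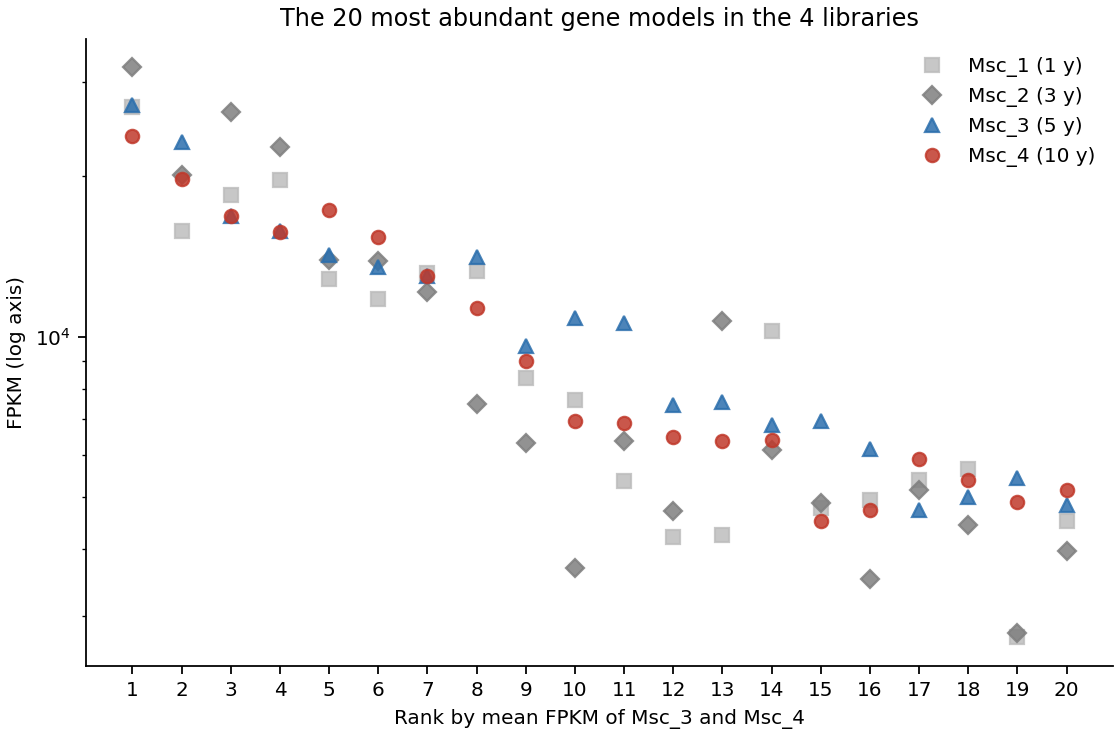
FPKM on a log axis of the 20 gene models with the highest mean of Msc_3 and Msc_4, ordered by that mean, with 1 symbol for each of the 4 pooled libraries and no error bars. Msc_3 and Msc_4 lay within 2-fold of each other at every rank. At several ranks Msc_1 or Msc_2 lay further from Msc_3 than Msc_4 did. Past 2-fold from Msc_3 this was so only at rank 10, with 3682 FPKM in Msc_2 and 10848 in Msc_3.

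The most abundant gene model had 26971, 31979, 27205 and 23834 FPKM in the 4 libraries from Msc_1 to Msc_4. It took 3.30% of the FPKM total of Msc_3 and 3.03% of that of Msc_4. The second had 15796, 20133, 23192 and 19795 FPKM in the order of age. Both were lower in Msc_4 than in Msc_3, by 0.19 and 0.23 on the log2 scale in size. The third and the fourth were level between the ages compared, with 16880 and 16861 FPKM for the third and 15784 and 15734 FPKM for the fourth in Msc_3 and Msc_4. In the younger libraries they had been higher, with 18463 and 26429 FPKM for the third in Msc_1 and Msc_2. The fourth had 19711 and 22737 FPKM there. The gene model at rank 7 was also level, with 13016 FPKM in Msc_3 and 12983 in Msc_4.

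The 2 largest gains in FPKM were at ranks 5 and 6. Gene model c680126_g2 had 12808, 13908, 14227 and 17289 FPKM in the 4 libraries from Msc_1 to Msc_4. The difference of 3061 FPKM was 0.28 on the log2 scale, and its rank within the library went from 5 in Msc_3 to 3 in Msc_4. Gene model c626988_g2 had 11768, 13884, 13523 and 15363 FPKM in the order of age, a log2 difference of 0.18 between the last 2. Both were highest in Msc_4 among the 4 libraries, and both stayed higher in Msc_4 than in Msc_3 under every scaling that was run. The lowest shift of the scalings was -0.05 on the log2 scale, too small to change either sign. Among the 46 were other gene models of the component of c680126_g2. At rank 19, one had 2733, 2782, 5433 and 4903 FPKM in the 4 libraries from Msc_1 to Msc_4, and at rank 29 another had 2375, 2751, 4254 and 3975 FPKM. Both were slightly lower in Msc_4 than in Msc_3, by 0.15 and 0.10 on the log2 scale in size, but after upper-quartile scaling the differences were -0.02 at rank 19 and 0.03 at rank 29. Reads shared between gene models of 1 component could move such values, and their part was not tested.

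The 2 largest losses were at ranks 10 and 11. Gene model c663139_g5 had 7605, 3682, 10848 and 6946 FPKM in the 4 libraries from Msc_1 to Msc_4. Its log2 difference was -0.64, the lowest among the 46. Gene model c657960_g2 had 5361, 6379, 10608 and 6907 FPKM, a log2 difference of -0.62. Another gene model, at rank 15, had 4769, 4873, 6954 and 4513 FPKM, also a log2 difference of -0.62. All 3 were highest in Msc_3 among the 4 libraries. Among the 46 as a whole, the highest library was Msc_1 for 9, Msc_2 for 13, Msc_3 for 16 and Msc_4 for 8. The lowest library was Msc_1 for 17, Msc_2 for 18, Msc_3 for 1 and Msc_4 for 10. The 46 were chosen on the mean of Msc_3 and Msc_4, which favours high values in those libraries. These counts also depend on scaling, since Msc_3 had the largest FPKM total. As shares of each total the lowest library was Msc_1 for 16, Msc_2 for 17, Msc_3 for 6 and Msc_4 for 7.

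A pair of gene models at ranks 43 and 44, from different components, moved in parallel. The first had 1126, 1996, 1606 and 2838 FPKM in the 4 libraries from Msc_1 to Msc_4, and the second 1056, 1878, 1604 and 2759. Their log2 differences of 0.82 and 0.78 between Msc_4 and Msc_3 were the only 2 above 0.5 among the 46. They were singled out after their values were seen.

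Over all 4845 gene models, the 2 libraries were close. The median log2 difference was -0.06, where log2 values were taken of FPKM + 0.1, and the quartiles lay between -0.39 and 0.22. Over the 105717 gene models above 0.3 FPKM in either library, the median was 0.03 and the interquartile range 1.89, against 0.61 among the abundant ones. By gene model, 2711 were lower in Msc_4, 2133 were higher and 1 was equal. Within 1.5-fold lay 3661 gene models, 75.6% of the 4845, and past it were 439 higher and 745 lower ones, 24.4% against a background of 62.6% (32.6% higher and 30.1% lower). The sign of the median rested on scaling. It was -0.12 after trimmed-mean (M-values) scaling, 0.01 as shares of each library total and 0.08 after upper-quartile scaling, which moves every Msc_4 value by 0.13 on the log2 scale. These medians also rest on a changed set, since the 15 FPKM limit was applied again after each scaling. It admitted 4765, 4942 and 5048 gene models in that order.

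**Figure D2:**
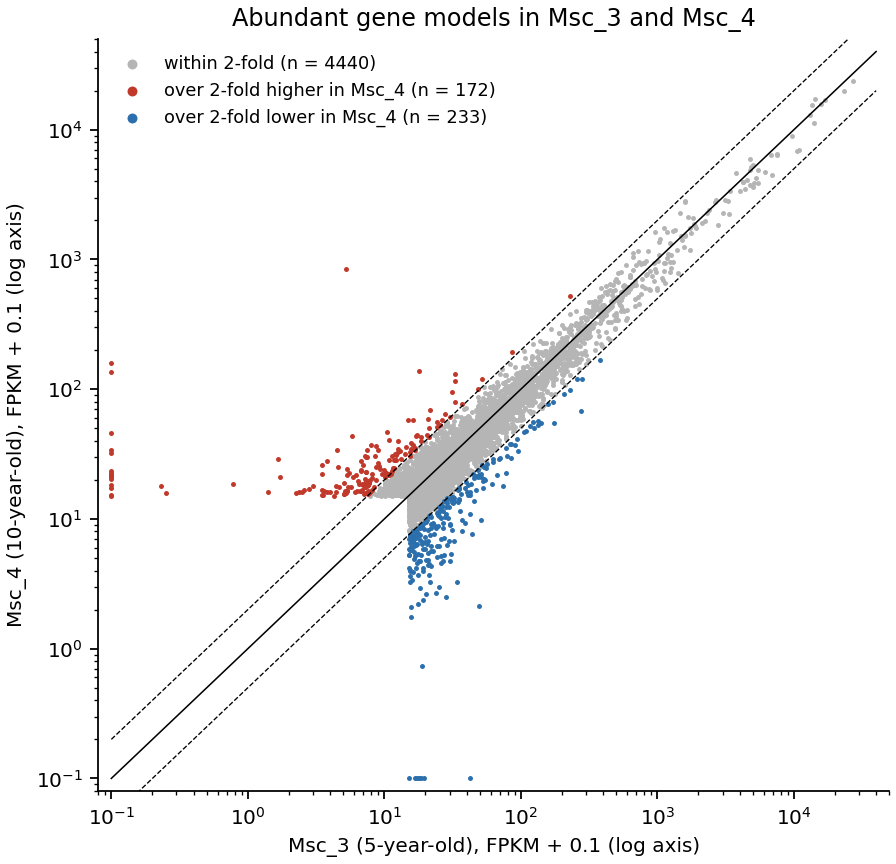
FPKM + 0.1 of the 4845 gene models in Msc_3 (horizontal, log axis) and Msc_4 (vertical, log axis), 1 point for each gene model. The solid line marks equality and the broken lines 2-fold, 172 gene models lie above and 233 below the broken lines, and the 15 and 7 gene models not listed in one library stand at 0.1 on its axis.

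Past 2-fold, 172 gene models were higher and 233 lower in Msc_4, 405 or 8.36% of the 4845. Over all gene models above 0.3 FPKM in either library the share past 2-fold was 48.1%, with 25.5% higher and 22.6% lower. Past 4-fold were 53 higher and 51 lower gene models, 2.15% against a background of 36.3% (19.4% higher and 16.9% lower). These counts have no replicate check. The background holds many gene models of low FPKM, and its share is no measure of what 2 pools of one age would give. Higher gene models made up 42.5% of those past 2-fold. Upper-quartile scaling turned the balance to 242 higher and 190 lower, 56.0% higher, among the 5048 gene models at 15 FPKM or more after that scaling. Among the 3670 gene models with at least 15 FPKM in both libraries, a filter that in turn limits how far they can differ, 33 were higher and 64 lower, and the interquartile range of the log2 difference was 0.48. Gene models just inside and just outside the 15 FPKM limit had similar counts. Of the 322 gene models whose higher value was from 15 to under 16 FPKM, 17 were higher and 23 lower past 2-fold. The 338 from 14 to under 15 FPKM, just outside, held 18 and 25.

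The share past 2-fold went down with abundance, and the direction of the median did not change between the classes. Gene models were grouped by their mean of Msc_3 and Msc_4. Of the 627 with a mean under 15 FPKM, which had to differ between the libraries to be included, 28.2% were past 2-fold. From 15 to 30 FPKM it was 6.99% of 2074, from 30 to 60 FPKM 4.98% of 1005, from 60 to 120 FPKM 4.28% of 537 and from 120 to 500 FPKM 2.24% of 446. None of the 110 gene models from 500 to 2000 FPKM and none of the 46 above was past 2-fold. The medians of the 6 classes from 15 FPKM upwards were between -0.14 and -0.02, and upper-quartile scaling, which adds 0.13 to each, leaves only that of the highest class below 0. The interquartile range was 0.58 in the class from 15 to 30 FPKM and 0.34 in the highest class.

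**Figure D3:**
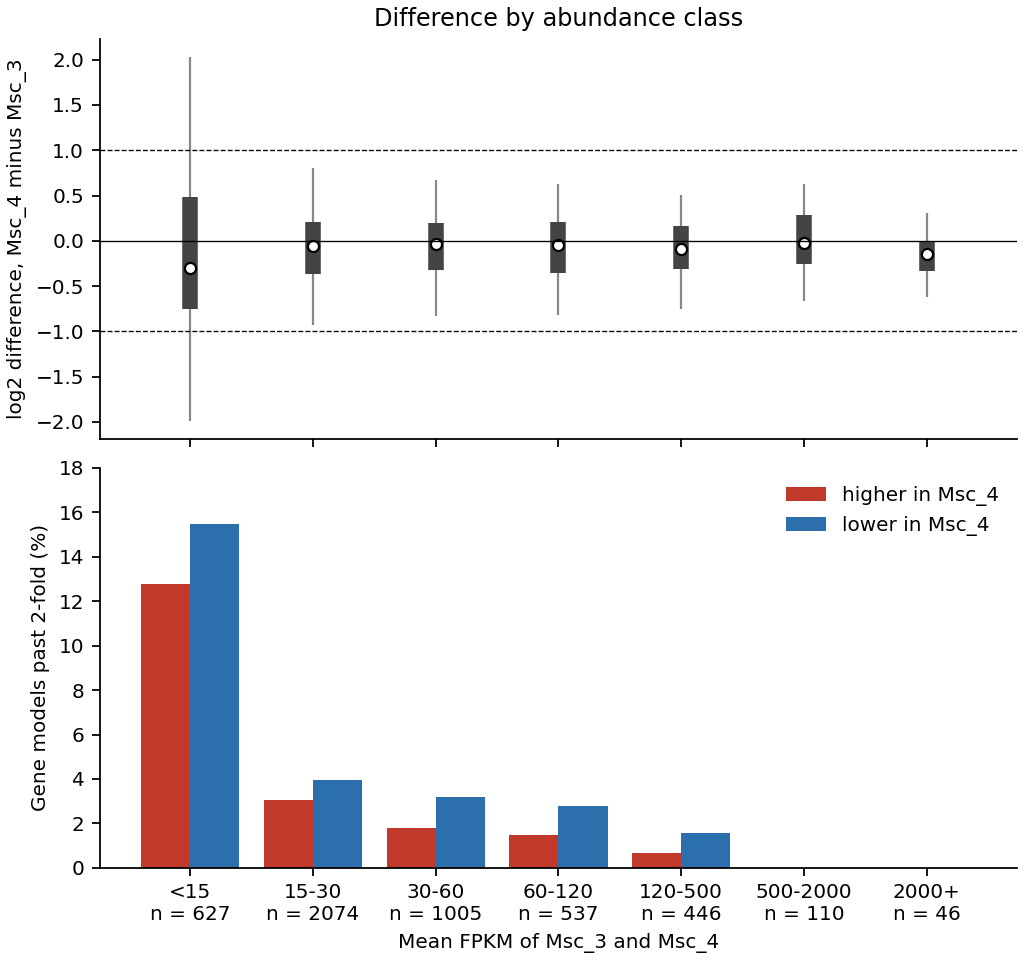
Upper panel, log2 difference (Msc_4 minus Msc_3) by class of mean FPKM, with the median (circle), the quartiles (thick bar) and the 5th to 95th percentile (line) over gene models. Lower panel, percent of gene models past 2-fold in each direction, from 28.2% in both directions together under 15 FPKM to 0 of 110 and 0 of 46 in the last 2 classes.

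In amount of FPKM, the abundant gene models lost more than they gained. Gains summed to 45477 FPKM, or 5.51% of the FPKM total of Msc_3, and losses to 83680 FPKM, or 10.1%. The net loss of 38204 FPKM was about as large as the 37834 FPKM by which the whole library totals differed, so that gains and losses among all other gene models nearly balanced. The 46 most abundant gene models accounted for 27259 FPKM of net loss, which was 72.0% of the difference in library totals. From 120 to 500 FPKM the net loss was 4827 FPKM, and from 500 to 2000 FPKM there was a net gain of 265 FPKM. Since FPKM totals depend on which gene models the fragments fall on, the comparison was also made on shares of each total. For this the 15 FPKM limit was applied again after scaling, which admitted 4942 gene models. They gained 7.32% and lost 8.25%, so that the imbalance was smaller. After upper-quartile scaling, where 5048 gene models were admitted, the gain, at 9.18%, exceeded the loss, at 6.79%. The share of the 46 went from 38.3% to 36.7%, that of the 500 to 2000 FPKM class from 12.4% to 13.0%, and that of the 120 to 500 FPKM class was 12.8% in both libraries.

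Most of what moved did so in small relative steps. Ordered from the largest, 55 gene models held 50% of the gain and 38 held 50% of the loss. The 10 largest gains made up 27.0% of all gains, and the 10 largest losses 30.3% of all losses. Gene models within 1.5-fold carried 64.1% of the gain and 59.6% of the loss. Those past 2-fold carried 10.9% of the gain and 7.24% of the loss, 4947 and 6062 FPKM. None of the 4 gene models named above was past 2-fold.

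**Figure D4:**
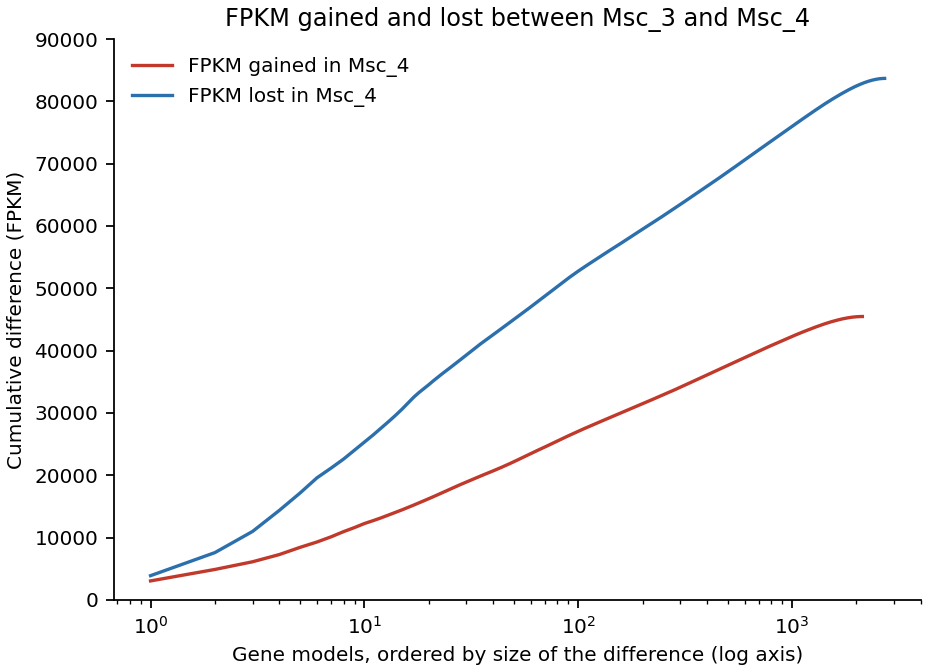
Cumulative FPKM gained and lost in Msc_4 relative to Msc_3 (FPKM) against the number of gene models on a log axis, each ordered from the largest difference. The loss ends at 83680 FPKM and the gain at 45477 FPKM, and 50% of each is reached at 38 and 55 gene models.

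Among the gene models past 2-fold, the one with the most FPKM in Msc_4 had 265.39, 244.03, 5.12 and 848.32 FPKM in the 4 libraries from Msc_1 to Msc_4. Its level in Msc_3 lay far below the 3 other libraries, and it gave 843 of the 4947 FPKM gained past 2-fold. The next had 335.31, 302.83, 229.91 and 520.23 FPKM in the order of age, lowest in Msc_3 and highest in Msc_4. The third had 45.66, 56.58, 85.98 and 193.57 FPKM and was higher at each later age. Another had 54.89, 191.37, 17.97 and 138.94 FPKM in the 4 libraries from Msc_1 to Msc_4, so that Msc_2 and Msc_4 were high and Msc_1 and Msc_3 low. Several others of the 12 highest had this alternation. One had 17.39, 60.08, 32.94 and 130.92 FPKM, another 24.84, 87.7, 32.85 and 114.55 FPKM, and one more 21.7, 57.79, 32.92 and 79.96 FPKM. Of all 172 higher gene models, 94 had Msc_2 and Msc_4 both above Msc_1 and Msc_3. Of the 233 lower ones, 112 had Msc_2 and Msc_4 both below Msc_1 and Msc_3. Choosing on Msc_3 and Msc_4 favours these orders, and the share among other gene models was not counted.

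Among the gene models lower in Msc_4 past 2-fold, the highest in Msc_3 had 142.18, 91.44, 380.73 and 167.34 FPKM in the 4 libraries from Msc_1 to Msc_4. Msc_3 stood above the 3 other libraries. The next had 331.74, 87.66, 278.89 and 119.36 FPKM, high in Msc_1 and Msc_3 and low in Msc_2 and Msc_4. The third had 422.67, 419.58, 276.45 and 67.86 FPKM and was lower in Msc_4 than in any younger library. It was the only one of the 12 highest past 4-fold, with a log2 difference of -2.02. Another had 3.42, 139.74, 173.13 and 79.54 FPKM, low in Msc_1 alone.

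The younger libraries, which did not enter the choice of gene models, had the following levels. The 172 gene models higher in Msc_4 had a median of 22.7 FPKM there and 7.48 in Msc_3, the values that chose them. Their median was 9.12 FPKM in Msc_1 and 13.7 in Msc_2. The 233 lower in Msc_4 had a median of 8.66 FPKM there and 25.7 in Msc_3, and 15.4 in Msc_1 and 14.6 in Msc_2. Both sets were chosen for Msc_3 and Msc_4 lying apart, so that medians of the younger libraries between the 2 follow from the choice and are given as levels only.

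**Figure D5:**
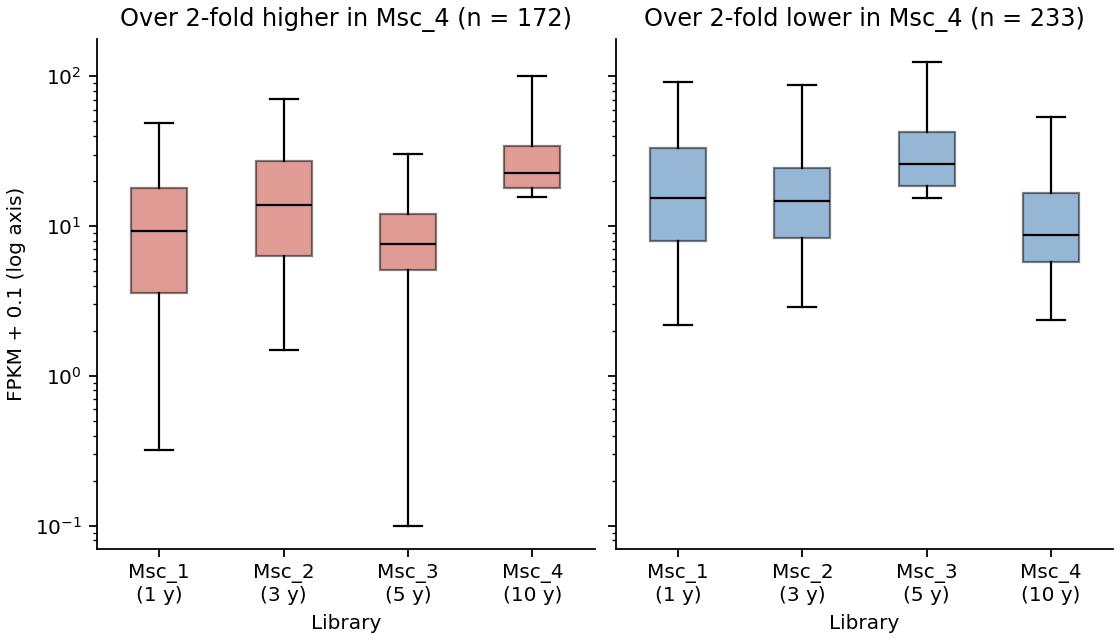
FPKM + 0.1 on a log axis in the 4 libraries for the 172 gene models over 2-fold higher (left) and the 233 over 2-fold lower (right) in Msc_4 than in Msc_3. Boxes show the median and quartiles and whiskers the 5th to 95th percentile over gene models. The values of Msc_3 and Msc_4 chose the sets, so that medians of Msc_1 and Msc_2 between them follow from the choice. These are at 9.12 and 13.7 FPKM on the left and 15.4 and 14.6 FPKM on the right.

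The Msc_2 vs. Msc_1 comparison shares no library with Msc_4 vs. Msc_3. Past 2-fold in Msc_2 vs. Msc_1 were 368 higher and 286 lower of the 4845 gene models, 13.5%, against a background of 52.3% over all gene models above 0.3 FPKM in Msc_1 or Msc_2 (24.5% higher and 27.8% lower). Of the 172 gene models higher in Msc_4 than in Msc_3, 65 were higher and 20 lower in Msc_2 than in Msc_1. Of the 233 lower in Msc_4, 40 were higher and 55 lower in Msc_2. Among the 4440 gene models within 2-fold between Msc_3 and Msc_4, 10.7% were past 2-fold between Msc_1 and Msc_2, beside 49.4% of the 172 and 40.8% of the 233. The 2 called sets were lower in the younger libraries, with medians of 9.12 and 15.4 FPKM in Msc_1 against 26.4 FPKM for the 4440, and both shares lay below the background of 52.3%. The part of level in these shares was not tested. Across the 3055 gene models with at least 15 FPKM in all 4 libraries, the log2 differences of the 2 comparisons had a Pearson correlation of 0.32 and a Spearman correlation of 0.34. This correlation is across gene models, which share libraries and components and are not replicates, and it is given as a description only.

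Of the 4845 gene models, 22 were listed in one of the 2 libraries only. Missing values count as 0, and no fold is printed against it. With the pseudocount of 0.1 FPKM all 22 were nevertheless counted past 2-fold and past 4-fold. They are 15 of the 172 higher and 7 of the 233 lower gene models past 2-fold. The 15 that were not listed in Msc_3 had between 15 and 158.86 FPKM in Msc_4, with a median of 21.6. Of these, 13 were listed in Msc_1 or Msc_2, and 8 had at least 15 FPKM in one of these. In Msc_1, Msc_2 and Msc_4 one had 58.55, 39.16 and 32.15 FPKM, and another had 48.9, 34.52 and 33.63 FPKM. Another had 36.74, 38.14 and 20.79 FPKM there. A further one, nearer the 15 FPKM limit, had 17.76, 15.48 and 21.23 FPKM. All of these were thus at 15 FPKM or more in every library but Msc_3. The 7 not listed in Msc_4 had between 15 and 42.58 FPKM in Msc_3, with a median of 17.9, and 1 of them had at least 15 FPKM in Msc_1 or Msc_2. That one had 5.91, 20.1 and 42.58 FPKM in the libraries from Msc_1 to Msc_3. For 3 of the 15 and 0 of the 7, another gene model of the same component was listed in the library where the gene model was missing.

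The files hold no fragment counts or gene model lengths. Read totals are stated by the study but were not used here, and the relative depth of the 2 libraries was estimated from the ratios of low values. Among 19029 gene models between 0.3 and 1.2 FPKM in both, the most common log2 ratio of Msc_4 to Msc_3 was 0.03, taken as that of equal fragment numbers. The highest value that recurred at least 10 times among gene models listed in 1 library alone was 5.2 FPKM in Msc_3 and 5.41 in Msc_4. By the same rule it was 3.87 FPKM in Msc_1 and 7.27 in Msc_2, so the rule is rough. The values of Msc_3 and Msc_4 were taken as the approximate worth of a single fragment on a short gene model. A short gene model near 15 FPKM can for this reason rest on few fragments. The 46 most abundant gene models, at 2000 FPKM or more, are far above this value.

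The 4845 gene models came from 4351 components, and 425 components held 2 or more of them. In 394 of the 574 pairs within a component, 68.6%, both were higher or both were lower in Msc_4. With 2711 of the 4845 lower and 2133 higher, many pairs from different components would also share a direction, and their share was not computed. In 8 components 2 or more gene models were past 2-fold, 17 gene models in all. In all 8 they had the same direction, higher in 4 components and lower in 4. One component held the highest of the lower gene models, with 380.73 FPKM in Msc_3 and 167.34 in Msc_4, beside another with 230.8 and 97.66 FPKM. Another component held 3 lower gene models, with 74.08, 53.38 and 51.1 FPKM in Msc_3 and 17.9, 20.32 and 22.12 FPKM in Msc_4. In one more, 2 gene models alternated in the same way, with 15.26, 59.17, 31.42 and 95.16 FPKM and with 6.14, 19.17, 16.98 and 43.61 FPKM over the 4 ages. Gene models of 1 component can share sequence and reads, so that they do not count as separate observations. When FPKM was summed over each component, 349 of the 405 gene models past 2-fold lay in a component whose sum was past 2-fold in the same direction. Another 56 lay in one that was not, and 0 in one past 2-fold in the opposite direction. For 202 of the 405, the only listed gene model of their component, the sum is the gene model itself. Their agreement was fixed in advance, and the 56 all lay among the rest.

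Identifiers ending in gene number 1 were 49.0% of the 4845 gene models and 63.7% of the 405 past 2-fold, against 70.4% of all gene models listed. Of the 405, 202 were the only listed gene model of their component, and of the 4845 this held for 1488.

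Set beside the other pairs of libraries, Msc_3 and Msc_4 were close. Among the 4099 gene models with a mean of 15 FPKM or more over the 4 libraries, the interquartile range of the log2 difference was 0.53 between Msc_3 and Msc_4 and 0.58 between Msc_2 and Msc_4, and ran from 0.68 to 0.76 in the other 4 comparisons. As a share of each library total and over all gene models, 14.1% of the FPKM would have to be reassigned to turn Msc_3 into Msc_4. In the other 5 comparisons this was between 17.3% and 19.5%. These comparisons share libraries, no test of the difference between them was possible, and whether pools of the same age would be closer is not known.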

How the data were processed

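The 4 mRNA libraries, 1 pool of 3 deer for each age, were sequenced by the authors on a HiSeq2500 after a TruSeq preparation, and adaptor and low-quality reads were removed. The authors deposited FPKM per gene model for each library, rounded to 2 decimals. Bowtie 0.12.2 is named in the submitters' processing notes without a role. Not given in the sources used here are the assembler, the counting program and the gene model lengths.

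Files were joined on the identifier in Python 3.11.15 (numpy 2.4.6, pandas 2.3.3), and figures were drawn with matplotlib 3.10.9. Unlisted gene models were set to 0, a pseudocount of 0.1 FPKM was added before log2, and 15 FPKM in Msc_3 or Msc_4 was required. A gene model was called past 2-fold above 1 on the log2 scale. No p-value was computed, because each age had 1 library. The DEGseq comparison in the study's methods needs counts and was not repeated. The log2 and trimmed-mean scaling steps of the code were tested on simulated data, made from Msc_3 values with planted changes. The other steps were not tested in this way.

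By rule, the 2 largest gains and the 2 largest losses in FPKM were named, and others were given by rank. The members and this rule were chosen with earlier results of these data known. Scaling, pseudocount, filter, choice of members, component sums and fold limits were varied. Sequences were not analysed here.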

Additional observations from a re-analysis of the deposited data

How the results depend on the processing

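No paired analysis was possible because no age had more than 1 library, so that there was neither a test nor a replicate to leave out. Of 15 other settings, 9 left the count of higher and 9 the count of lower gene models past 2-fold within 1.5 times the 172 and 233 given. The others were, higher and lower, 16 and 33 with a filter at 60 FPKM, 9982 and 9792 at 1 FPKM, 50847 and 42996 with no filter, 92 and 136 when chosen by the mean of Msc_3 and Msc_4, 53 and 51 past 4-fold, and 439 and 745 past 1.5-fold, where the background was 62.6%. With 15 FPKM required in both libraries, an alternative chosen after seeing the data, they were 33 and 64. These settings admit other gene models or use another limit by construction. Settings among the 9 also admitted other gene models. The 15 FPKM limit was applied again after scaling. It was reached by 4765 gene models with the trimmed mean of the M-values, 5048 with the upper quartile and 4942 with the FPKM total. Some of the 9 settings could not change the counts. Median-of-ratios scaling had a factor of 0, and none of the gene models left out as the 10 highest of each library was past 2-fold. Upper-quartile scaling was among the 9, although its 242 higher and 190 lower reversed the balance.

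The share of calls that were higher, 42.5%, was 37.5% with the trimmed mean of the M-values, 56.0% with the upper quartile, 49.0% with the FPKM total, 32.7% at 60 FPKM, 50.5% at 1 FPKM, 54.2% with no filter, 51.0% past 4-fold, 37.1% past 1.5-fold and 34.0% at 15 FPKM in both. The median log2 difference of -0.06 turned to 0.0805 with the upper quartile, 0.0134 with the FPKM total and 0.0375 with no filter. It was -0.119 with the trimmed mean of the M-values, 0 at 1 FPKM, -0.0455 when gene models were chosen on Msc_1 and Msc_2, and -0.0476 at 15 FPKM in both.

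FPKM gained and lost, 5.51% and 10.1%, were 4.59% and 11.7% with the trimmed mean of the M-values, 9.18% and 6.79% with the upper quartile, where the gain exceeded the loss, and 7.32% and 8.25% with the FPKM total. They were 4.31% and 8.50% at 60 FPKM, 9.55% and 14.5% at 1 FPKM, 11.7% and 16.3% with no filter, 5.29% and 9.83% by the mean, 5.31% and 9.88% when chosen on Msc_1 and Msc_2, 5.51% and 10.2% summed by component, 4.92% and 7.98% without the 10 highest gene models of each library, and 4.89% and 9.48% at 15 FPKM in both. Median-of-ratios scaling gave a factor of 0 on the log2 scale and changed nothing. The cause of these dependences was not tested. The log2 differences of the 4 named gene models kept their sign under the 4 scalings and the pseudocounts of 1 and 0.01 FPKM. The shifts of the scalings lay between -0.05 and 0.13 on the log2 scale, too small to change any of these signs. The pseudocounts are far below the FPKM of these gene models.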
